A study of Drosophila melanogaster with 8 samples.

Results

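The 2 male peak lists of this ATAC-seq study came from cells of the adult male brain, sorted by a reporter of fruitless expression. The fru+ list was of reporter-positive cells and the fru- list of reporter-negative cells. The lists were merged into regions wherever their peaks overlapped by at least 1 bp on the main chromosomes. Of 12992 regions, 3728 held peaks of only 1 list. These were the male fru+ only regions (1885, or 14.5% of all regions of the 2 lists) and the male fru- only regions (1843, or 14.2%), and the other 9264 held peaks of both lists. The members were thus selected on the peak calls themselves, so their presence in 1 list and absence from the other is a description and carries no test. When all 4 lists of the series were merged, 14709 regions resulted.

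ATAC-seq marks DNA that the Tn5 transposase can reach, and so maps open chromatin. The groups used here were male fru+, male fru-, female fru+ and female fru-, each with 2 samples that were represented by 1 peak list, and the female pair served only as a readout that played no part in choosing members. All flies were 2 to 7 day adults of the strain w1118 that carried UAS-mCD8-GFP over MB247-Gal80 on 1 chromosome pair and Fru-GAL4 over a balancer (TM2 or TM6B) on another, and fru+ and fru- cells of a sex came from the same brains. Fru-GAL4 drives GFP where the P1 promoter of fru is active, optic lobes were removed, and GFP-positive cells formed the fru+ pool. MB247-Gal80 silences GAL4 in mushroom body Kenyon cells, so that fru-expressing Kenyon cells lie in the fru- pool, which holds every other kind of GFP-negative cell too. A pool mixes many neuron types, so that a peak present in few cells and a weak peak in all cells cannot be told apart.

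The gene fruitless encodes BTB zinc finger transcription factors. Transcripts from its P1 promoter are spliced differently in the sexes, and only the male form yields FruM protein, which directs the wiring and function of the neurons of courtship. Male fru+ neurons therefore hold FruM, whereas female fru+ neurons transcribe the locus without making it. Introns and intergenic DNA of neuronal genes often carry enhancers, whose accessibility differs between neuron types more than that of promoters.

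The 4 lists were of like size, with 11295 peaks in male fru+, 11206 in male fru-, 11217 in female fru+ and 11602 in female fru- on the main chromosomes. The background level that MACS2 had used genome-wide, recovered from the deposited fold enrichments and p-values, was 18.0 in the male fru+ list, 18.9 in the male fru- list, and 14.3 and 16.4 in the female fru+ and female fru- lists. The lowest summit pileup called a peak against that background was 37 in the male fru+ list and 38 in the male fru- list. In regions of both male lists, the median fold enrichment over background was 4.86 for male fru+ peaks and 5.09 for male fru- peaks, and the median log2 ratio of male fru+ to male fru- was -0.074. Of 10 neuronal marker genes, 10 had a peak in both male lists, against 4 and 4 of 12 glial, 1 and 1 of 5 photoreceptor, 1 and 1 of 4 fat body, 1 and 1 of 4 blood cell and 0 and 0 of 4 muscle markers in male fru+ and male fru-. The glial markers held 4 male fru+ peaks and 7 male fru- peaks. The description lines of the samples titled male fru- and female fru+ name each other's group. Groups here follow the titles, and 14.9% of peaks in the list titled male fru- lay on the X chromosome, against 20.3% in the list titled female fru+. Peak names carry the replicate number 1 in both male lists and 2 in both female lists, although the lists are labelled as pooled, so that replicate and sex cannot be told apart between them.

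The DNA at the summits of members to which the results return is shown first, as 101 bases of the plus strand of dm6 centred on the summit. Capitals mark matches, on either strand, to the 13 short motifs searched, among them the POU octamer ATGCAAAT and the CA repeat CACACACA. The first windows are shown because their genes or ranks recur in the results, and they come from the strongest member in an intron of fru, qin, 5-HT2B and lilli and from the strongest male fru- only region, beside Sox21a. The windows of fru and qin are male fru+ only, and the rest are male fru- only.
fru intron, chr3R:18508612-18508712: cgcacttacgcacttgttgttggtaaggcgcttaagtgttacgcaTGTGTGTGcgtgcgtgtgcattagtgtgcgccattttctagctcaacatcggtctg
qin intron, chr3R:18603164-18603264: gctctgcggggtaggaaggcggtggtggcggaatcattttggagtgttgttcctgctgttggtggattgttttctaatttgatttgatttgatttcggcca
5-HT2B intron, chr3R:8614316-8614416: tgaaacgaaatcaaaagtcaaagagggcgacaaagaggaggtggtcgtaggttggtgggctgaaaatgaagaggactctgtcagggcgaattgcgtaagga
lilli intron, chr2L:2908914-2909014: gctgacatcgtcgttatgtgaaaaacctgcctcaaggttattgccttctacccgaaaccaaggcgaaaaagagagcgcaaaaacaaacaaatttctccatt
near Sox21a, chr3L:14108212-14108312: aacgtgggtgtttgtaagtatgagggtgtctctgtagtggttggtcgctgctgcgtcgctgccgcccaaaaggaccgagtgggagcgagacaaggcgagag

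Only the fru window held a searched motif, a CA repeat, which 10.3% of all 12992 windows of this length also held. A further 6 windows are shown for the octamer, the motif whose share differed by the most percentage points between the directions. They are the 3 strongest members of each direction in introns or intergenic DNA of the chromosomes printed here that held it within the 101 bases, named by the nearest protein-coding gene and chosen after the motif shares were seen.
male fru+ only, CG6959, chr3R:11849712-11849812: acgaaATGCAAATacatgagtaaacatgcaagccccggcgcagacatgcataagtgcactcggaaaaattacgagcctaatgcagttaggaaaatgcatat
male fru+ only, dpr17, chr3R:12101689-12101789: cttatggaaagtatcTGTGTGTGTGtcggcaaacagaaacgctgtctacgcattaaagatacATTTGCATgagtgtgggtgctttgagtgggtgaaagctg
male fru+ only, CG14629, chrX:1060121-1060221: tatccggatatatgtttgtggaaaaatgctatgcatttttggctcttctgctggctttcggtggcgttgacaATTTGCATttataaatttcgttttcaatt
male fru- only, CG34106, chr2L:17157484-17157584: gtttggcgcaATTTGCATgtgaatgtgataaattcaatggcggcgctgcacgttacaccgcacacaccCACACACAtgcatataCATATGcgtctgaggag
male fru- only, ProtA, chr2L:14880703-14880803: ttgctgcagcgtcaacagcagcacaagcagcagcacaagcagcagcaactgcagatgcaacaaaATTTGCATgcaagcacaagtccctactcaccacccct
male fru- only, CG42852, chr3L:16747346-16747446: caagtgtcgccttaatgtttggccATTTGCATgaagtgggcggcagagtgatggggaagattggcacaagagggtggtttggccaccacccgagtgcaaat

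Members of both directions were weak, narrow peaks. Male fru+ only regions had a median width of 284 bp, a median fold enrichment of 2.69 and a median summit pileup of 55. Male fru- only regions had a median width of 290 bp, a median fold of 2.65 and a median pileup of 58, and regions of both lists had medians of 711 bp, a fold of 4.86 and a pileup of 126 in male fru+. Strength was also ranked within each list, as the percentile of -log10 q, the measure of confidence that MACS2 gives a peak. The median member stood at the 15.7th percentile of male fru+ and at the 15.6th percentile of male fru-. Only 38 male fru+ only and 14 male fru- only regions lay above the middle of their list, whereas 5569 regions of both lists did. Most members were therefore among the weaker peaks of their list, and most of the strong peaks were common to both pools. Their median -log10 q was 9.28 (male fru+ only) and 9.52 (male fru- only), where a call needed 3. The signal of a member in the list that lacked it is not known, so a weak signal there and none cannot be told apart.

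**Figure D1:**
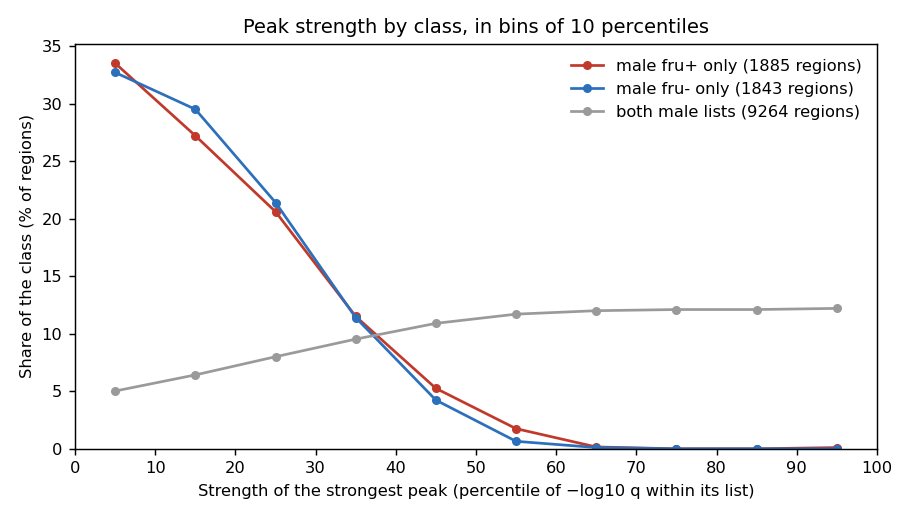
Strength of the strongest peak of each region, as the percentile of -log10 q within its list in bins of 10 percentiles (x axis), against the share of the class (y axis, percent of regions). The male fru+ list ranks the shared regions. Both classes of members peak in the lowest bin, which held 33.5% of male fru+ only regions, and shared regions spread over all bins.

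At the threshold itself, the weakest members had a -log10 q of 3.22 (male fru+ only) and 3.07 (male fru- only). A value under 5 was found for 147 male fru+ only and 151 male fru- only regions. Just outside the rule stood 170 regions of both lists whose weaker peak was under 5, the lowest at 3.07, and 20 whose peaks overlapped by less than 50 bp. A peak of the other list lay within 200 bp of 23 male fru+ only and 19 male fru- only regions, and the closest lay 12 bp away in both directions. The median member was 3346 bp (male fru+ only) and 2917 bp (male fru- only) from the nearest peak of the other list, so that few members were edges of a shared peak.

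Members lay in introns and intergenic DNA, and regions of both lists at promoters. A promoter was taken as lying within 50 bp of an annotated transcription start site. Promoters made up 7.75% of male fru+ only regions (146 of 1885, Wilson 95% interval 6.62 to 9.04), 9.98% of male fru- only regions (184 of 1843, 8.70 to 11.4) and 55.1% of regions in both lists (54.1 to 56.1). Introns held 45.5% of male fru+ only regions (43.3 to 47.8) and 48.5% of male fru- only regions (46.2 to 50.7), against 23.1% of regions in both lists. Intergenic DNA held 33.8% and 30.7%, against 14.6%. The 3′ UTR was the position where the directions stood furthest apart in proportion, with 4.30% of male fru+ only (3.47 to 5.31) and 2.77% of male fru- only regions (2.11 to 3.62). These intervals, and all those below, cover counting error only, since 1 list stood for each pool and no spread between samples could be had.

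**Figure D2:**
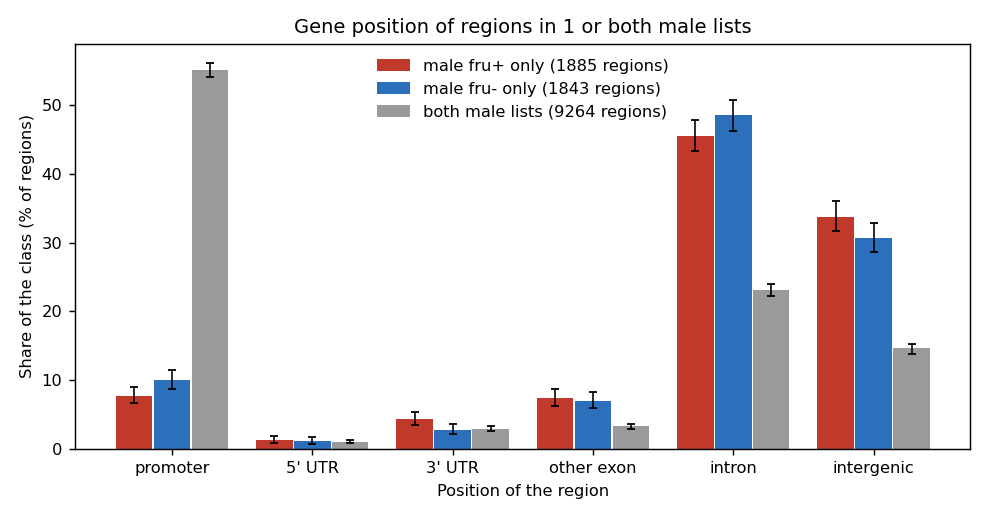
Share of each class (y axis, percent of regions) by position in or beside a gene (x axis), for male fru+ only regions, male fru- only regions and regions in both male lists, with Wilson 95% intervals as error bars. Introns lead in both classes of members at 45.5% and 48.5%, and promoters lead in shared regions at 55.1%.

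Along the chromosomes the directions differed most on 3L, which held 16.4% of male fru+ only regions (14.8 to 18.1) and 22.4% of male fru- only regions (20.6 to 24.4), and 1850 of the 9264 shared regions. Chromosome 2L held 24.1% and 23.5%, above the 18.7% of shared regions, and the X held 11.8% and 11.3%, below their 15.6%. On 2R the shares were 20.1% and 17.0%, and on 3R they were 26.9% and 25.3%. The nearest other member on the chromosome had the same direction for 52.8% of male fru+ only regions, which were 50.6% of all members, and for 52.1% of male fru- only regions, which were 49.4%. Male fru+ only and male fru- only regions were thus interleaved, and most did not sit in domains of a single direction.

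The female lists, which were not used to choose the members, separated the directions. Of male fru+ only regions, 65.5% (1234 of 1885, 63.3 to 67.6) had no peak in either female list, against 26.5% of male fru- only regions (488 of 1843, 24.5 to 28.5) and 3.66% of shared regions. Members were mostly weak, and of the 1408 shared regions up to the 25th percentile of strength, 13.1% had no female peak. Both female lists had a peak in 12.6% of male fru+ only regions (11.2 to 14.2) and in 40.5% of male fru- only regions (38.3 to 42.7). Most regions called in the male fru+ but not the male fru- pool were thus uncalled in either female pool. Most regions called in the male fru- but not the male fru+ pool were called in at least 1 female pool.

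Where 1 female list alone had a peak, it tended to be the list with the matching fru label. Female fru+ alone had a peak in 13.6% of male fru+ only regions (257, 12.2 to 15.3) and 8.30% of male fru- only regions (153, 7.13 to 9.65), against 4.86% of all regions of the male lists. Female fru- alone had one in 8.28% of male fru+ only regions (156, 7.12 to 9.61) and 24.7% of male fru- only regions (456, 22.8 to 26.8), against 7.84% of all regions. Shared regions up to the 25th percentile of strength had 8.31% in female fru+ alone and 15.3% in female fru- alone. Among regions found in 1 female list only, the female fru+ list was the one for 62.2% of male fru+ only regions (57.5 to 66.8), 25.1% of male fru- only regions (21.8 to 28.7) and 35.3% of shared regions (31.7 to 39.1). The female fru- list was the longer of the female pair, and its part in the last shares was not tested.

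**Figure D3:**
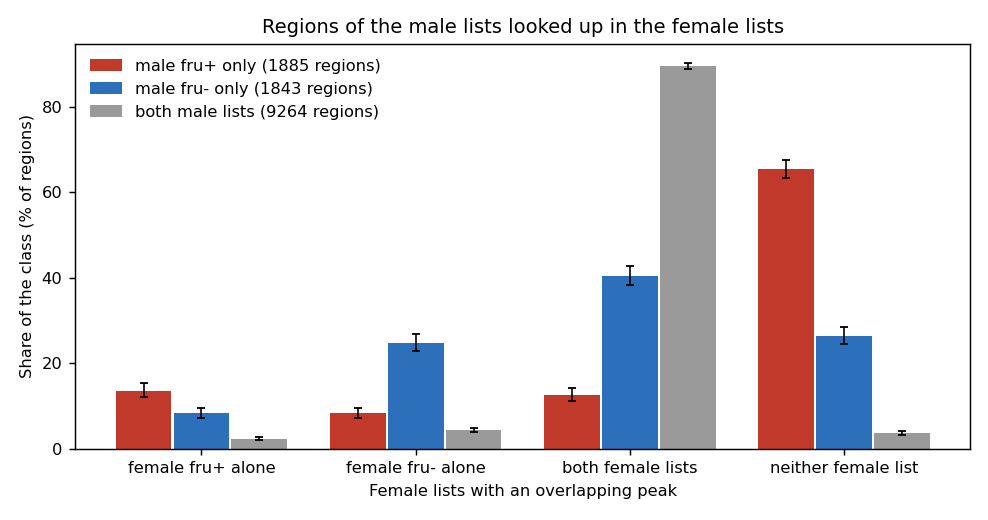
Share of each class (y axis, percent of regions, Wilson 95% intervals as error bars) by which female lists had an overlapping peak (x axis). Male fru+ only regions stand out at 65.5% with no female peak, male fru- only regions at 40.5% with a peak in both female lists, and shared regions at 89.6% in both.

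The same asymmetry held among the stronger members. Above the 25th percentile of strength, 55.9% of 533 male fru+ only regions (51.7 to 60.1) and 11.8% of 450 male fru- only regions (9.12 to 15.1) had no female peak, and 16.9% and 62.2% had a peak in both female lists. Introns gave 63.1% of male fru+ only and 23.5% of male fru- only regions without a female peak, and promoters gave 73 of 146 and 51 of 184. The X chromosome, of which females have another copy, differed from the autosomes. On the X, 24.8% of 222 male fru+ only regions (19.6 to 30.9) had no female peak and 53.6% had one in both female lists, whereas on the autosomes these shares were 70.9% (68.7 to 73.0) and 7.16% of 1663. Male fru- only regions without a female peak numbered 24 of 208 on the X and 464 of 1635 on the autosomes. More of the female than of the male peaks lay on the X, with 20.3% in female fru+ and 14.9% in male fru-.

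The gene fru itself (chr3R:18414273-18545586, minus strand, 131314 bp) had the largest surplus of male fru+ only regions of any gene. Its body held 17 male fru+ peaks against 7 male fru- peaks, and 13 female fru+ against 6 female fru- peaks. Together these peaks spanned 8601 bp in male fru+, against 2147 bp in male fru-, and 5872 bp in female fru+, against 1828 bp in female fru-. Merged, these gave 13 male fru+ only, 3 male fru- only and 4 shared regions, the first of which was at the 5′ end in all 4 lists. The fru+ lists of both sexes thus covered more of the locus than the fru- lists.

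Of the 13 male fru+ only regions of fru, 11 were intronic, 1 was at an internal start site and 1 was in a 3′ UTR. The strongest, whose summit window is shown above, lay 36.4 kb from the 5′ end, was 1154 bp wide and had a fold of 4.42 (a pileup of 105 against a local background of 23.0). It had a fold of 4.67 in female fru+ and no peak in either fru- list. The next, at 123 kb, lay in a 3′ UTR with a fold of 3.69 and reached 2.49 in female fru+. Others with a female fru+ peak stood closer to the 5′ end, at 9.61, 13.9 and 15.2 kb, with folds of 3.17, 3.08 and 2.75 in male fru+ and 2.95, 3.21 and 2.69 in female fru+. In all, 5 of the 13 had a peak in female fru+ and 0 of 13 in female fru-. The other 8, with folds of 2.10 to 2.91 in male fru+, were called in male fru+ alone of the 4 lists. The 3 male fru- only regions of fru lay at 7.93, 86.8 and 97.3 kb with folds of 2.67, 2.42 and 3.22, and the first and last of them had peaks in both female lists.

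Beyond the 5′ end of fru, on the same chromosome, lies qin (chr3R:18591027-18650137), a Tudor-domain gene of the piRNA pathway known from the germ line. It had 6 peaks in male fru+, against 1 in male fru-, and 1 in female fru+ and 0 in female fru-. Its 5 male fru+ only regions were all intronic, with folds of 2.64 to 3.64 and pileups of 49 to 68 against backgrounds of about 18.0, and 0 of the 5 had a peak in a female list. The genes CG14304 and CG14301 lie within qin on the other strand, and 4 of the 5 regions fall in their bodies too. The 45440 bp between fru and qin held 2 male fru+ only, 0 male fru- only and 3 shared regions. The window of 200000 bp starting at chr3R:18400001, which holds fru and the start of qin, had 16 male fru+ only and 3 male fru- only regions, the largest surplus of the genome in windows of that size.

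**Figure D4:**
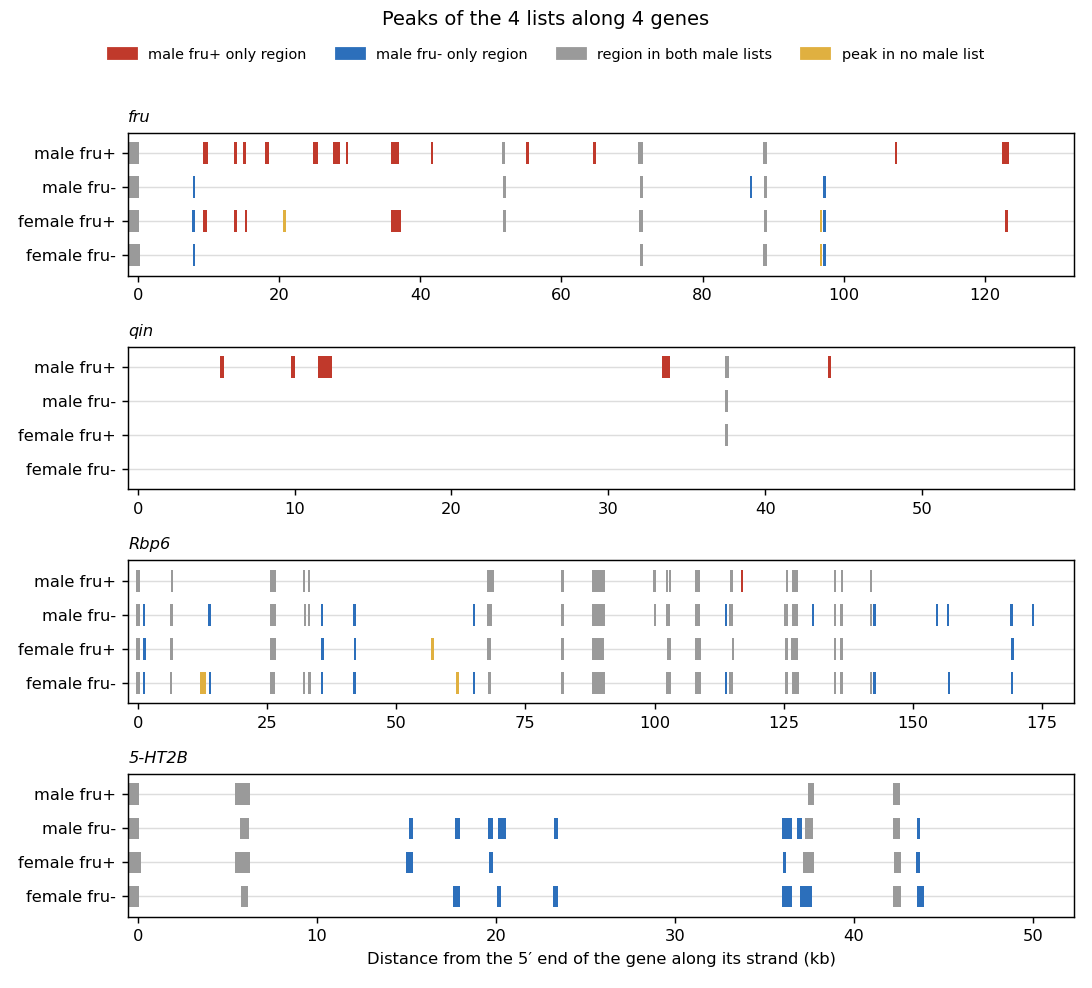
Peaks of the 4 lists (rows) along fru, qin, Rbp6 and 5-HT2B, by distance from the 5′ end of the gene along its strand (x axis, kb), coloured by the class of the male region they overlap, with the narrowest peaks widened to stay visible. Male fru+ only regions crowd the first 64.6 kb of fru, which hold 11 of 13, and male fru- only regions recur along Rbp6 and 5-HT2B.

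Across all genes, 7915 had a region of the male lists in their body and 1438 had a member. At least 3 more male fru+ only than male fru- only regions were found in 41 genes (0.518% of the 7915), and at least 3 more in the other direction in 40 (0.505%). Members in both directions shared 325 genes. Genes with 3 or more male fru+ only regions had a median length of 77089 bp and those with 3 or more male fru- only regions 70870 bp, against 11402 bp and 10458 bp for genes with 1. Long genes were thus the ones with several members, and of 81 genes of at least 100000 bp, 48 had members in both directions. Which gene a region serves is not known from its position, so counts refer to the gene body the region lies in. When each region was given to the gene with the nearest start site instead, the male fru+ only minus male fru- only count was 9 in place of 10 for fru and -8 under both schemes for lilli. It was -3 in place of -11 for Rbp6, -1 in place of -8 for 5-HT2B, 1 in place of 7 for dpr8 and 0 in place of 5 for qin, whose introns hold or adjoin start sites of other genes. The count was also 0 for luna, Sema1a, CG42260, rgn, dpr11, CG44153, dpr6, bru2, CG34354 and Ten-m, all named below.

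Next in rank by surplus of male fru+ only regions came genes of several kinds. The immunoglobulin-domain surface gene dpr8, on the X, had 7 male fru+ only and 0 male fru- only regions beside 3 shared, with 10 peaks in male fru+ and 4 in male fru-. Of its 7 members, 6 had a peak in female fru+ and 5 in female fru-, where the whole gene had 21 and 24 peaks. The adhesion gene kirre, also on the X, had 8 male fru+ only and 2 male fru- only regions, and 7 and 8 of the 8 were called in female fru+ and female fru-. The male fru- list lacked these members by the rule that selected them. In both X-linked genes, each male list held fewer peaks than each female list. The whole kirre gene had 21 male fru+ and 16 male fru- peaks, whereas the female fru+ list held 41 and the female fru- list 47. The part of X copy number in these counts was not tested.

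In autosomal genes of the same rank, most male fru+ only regions were uncalled in females. This also held for 70.9% of all 1663 autosomal male fru+ only regions. The Krüppel-like zinc finger gene luna had 10 male fru+ only and 4 male fru- only regions, of which 1 of the 10 was in female fru+ and 3 were in female fru-. In sm, which encodes an hnRNP-type RNA-binding protein, the counts were 8 and 2, and 2 of the 8 had a female fru+ peak and 0 a female fru- peak. Sema1a, a transmembrane semaphorin that guides axons, had 6 and 1 beside 13 shared regions, and 1 of the 6 was in each female list. The dpr gene dpr11 had members in both directions, 10 and 6, and the zinc finger gene shn, of the Dpp pathway, had 4 and 0. The other three genes of this rank were CG42260 with 7 and 2, rgn with 5 and 0 and CG44153 with 4 and 0, and of their 16 male fru+ only regions 0 were in female fru+ and 2 were in female fru-.

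In the other direction the largest surplus was in an RNA-binding gene. Rbp6 (chr3L:17058774-17238212, minus strand), a relative of Musashi, had 12 male fru- only and 1 male fru+ only regions beside 17 shared. Peaks in its body numbered 20 in male fru+ and 29 in male fru-, and 18 in female fru+ and 28 in female fru-, so that the female pair differed in the same sense. Of the 12, 4 had a female fru+ peak and 9 a female fru- peak, and the single male fru+ only region had none. Folds of the 12 were between 1.87 and 3.35, the strongest 1.16 kb from the 5′ end, with a pileup of 116 on a local background of 34.0.

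The serotonin receptor gene 5-HT2B (chr3R:8578205-8629996) had 8 male fru- only and 0 male fru+ only regions beside 4 shared, all 8 of them intronic. It held 4 peaks in male fru+, against 12 in male fru-, and 8 in female fru+ and 9 in female fru-. Folds of the 8 in male fru- lay between 2.20 and 3.47, with pileups of 43 to 68, and 4 had a peak in female fru+ and 6 in female fru-. All 8 overlapped a peak of at least 1 female list. The member at 36.823 to 37.076 kb met only the edge of a female fru- peak at 37.007 to 37.671 kb. Absence of the 8 from the male fru+ list was the rule that chose them. The gene lilli (chr2L:2885929-2954406), of the AF4 family of transcriptional elongation factors, had 9 male fru- only and 1 male fru+ only regions. It had 5 peaks in male fru+, against 13 in male fru-, and 13 in female fru+ and 8 in female fru-. Its strongest members had folds of 4.71 and 4.52 in male fru-, 3.80 and 5.24 in female fru+, and 4.60 and 5.46 in female fru-.

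The RNA-binding gene shep (chr3L:5155821-5277944) had 7 male fru- only and 0 male fru+ only regions, of which 1 was in female fru+ and 4 were in female fru-. For the translational repressor gene pum the counts were 4 male fru+ only and 10 male fru- only regions beside 20 shared, and 5 and 7 of the 10 were in female fru+ and female fru-. The Bruno-family genes bru3 and bru2 had 15 male fru+ only and 19 male fru- only, and 2 and 6. The bru3 gene thus had the most members of any gene in each direction, and it spans 281494 bp. Surface genes of this rank were dpr6 with 4 male fru+ only and 9 male fru- only regions and the teneurin Ten-m with 2 and 6. The myosin phosphatase subunit gene MYPT-75D and unc-13-4A each had 0 and 4, and CG34354 had 2 and 6.

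**Figure D5:**
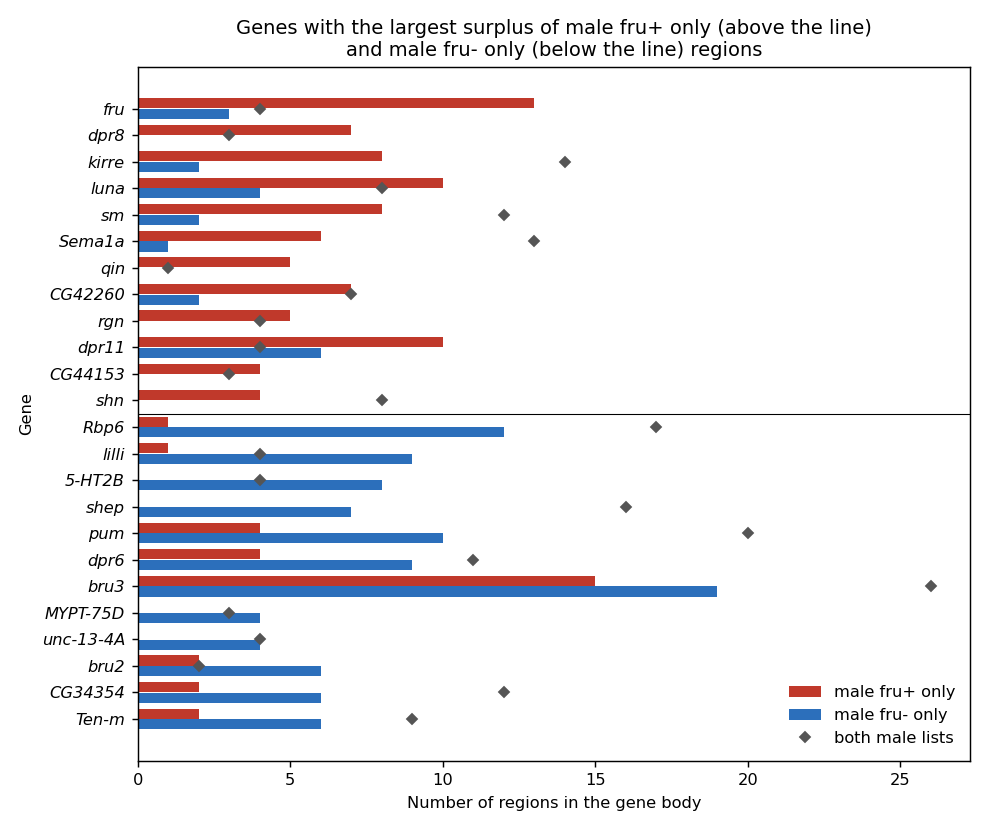
Number of regions in the gene body (x axis) for the 12 genes with the largest surplus of male fru+ only regions, above the line, and the 12 with the largest surplus of male fru- only regions, below it. Bars give members and diamonds give regions in both male lists; fru has 13 and 3, and Rbp6 has 1 and 12.

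Gene lists were read against all 10393 regions in gene bodies, of which 11.9% were male fru+ only and 12.2% male fru- only. In genes of at least 30000 bp, which hold most members of the lists, these shares were 18.9% and 18.8%. Cell surface genes that match neurons to partners (62 of 65 genes with a region) had 95 male fru+ only and 107 male fru- only of 399 regions, or 23.8% (19.9 to 28.2) and 26.8%. Genes of this list with more male fru+ only regions numbered 14, and 25 had more male fru- only regions. Among the dpr genes, whose proteins bind those of the DIP genes, there were 35 male fru+ only and 28 male fru- only regions, and among the DIP genes 5 and 12. The beat and side genes, another set of binding partners, had 19 and 19, and 20 and 21. Examples within these families pointed both ways, as beat-VI had 5 and 1 and beat-IIIc 0 and 4, and dpr3 had 3 and 0 while DIP-theta had 1 and 3. The adhesion gene tei had 4 and 7, and the teneurin Ten-a had 5 and 6.

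RNA-binding genes (20 genes) had 38 male fru+ only (12.7%) and 81 male fru- only regions (27.0%) of 300, and 2 genes leaned to male fru+ while 12 leaned to male fru-. Without Rbp6, shep and pum the counts were 33 and 52, and without bru3 they were 23 and 62. Other genes of this list were heph, a polypyrimidine tract binding protein, with 0 and 3, Rbfox1 with 1 and 4 and mbl, a splicing regulator, with 3 and 6. Amine receptor genes (14) had 8 male fru+ only and 23 male fru- only of 77 regions, 8 and 15 without 5-HT2B. Besides 5-HT2B, the octopamine receptor gene Octbeta3R had 0 and 3, and the dopamine receptor gene Dop2R had 1 and 2. The serotonin receptor genes 5-HT7 and 5-HT1A had 2 and 3, and 2 and 1. These lists and the genes in them were picked with earlier results of these data known, so their leanings are counts and not evidence.

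Axon guidance genes had 18 male fru+ only (19.1%, 12.5 to 28.3) and 10 male fru- only (10.6%, 5.88 to 18.5) of 94 regions. The first share was close to the 18.9% of genes of at least 30000 bp, and the second was below their 18.8%. Without Sema1a the counts were 12 and 9. Of these genes, 8 leaned to male fru+ while 3 leaned to male fru-. The receptor phosphatase gene Lar, a receptor of growth cones and synapses, had 4 and 2, and the ligand gene sli had 2 and 1. The 3 genes that leaned to male fru- were another receptor phosphatase gene, Ptp99A, with 1 and 2, and the Slit receptor genes robo2 and robo3 with 0 and 2 each. Sex determination genes had 14 and 3 of 29, of which all but 1 and 0 were in fru, the remaining one being in dsx, the other terminal transcription factor gene of the pathway. Ion channel genes had 13 and 11 of 86. Among them the Shaker potassium channel gene Sh had 2 and 5, Shab had 3 and 1, and KCNQ had 2 and 2.

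Genes of Kenyon cells and learning, cells that the genetic scheme places in the fru- pool, had 12 male fru+ only and 18 male fru- only of 124 regions. The shares were 9.68% (5.62 to 16.2) and 14.5% (9.38 to 21.8). Their intervals held the 11.9% and 12.2% of all regions in gene bodies. Against the 18.9% and 18.8% of genes of at least 30000 bp, the first interval lay below and the second held the share. Of these genes, 4 leaned to male fru+ while 9 leaned to male fru-. The steroid-response factor gene Eip93F had 0 and 3 beside 10 shared, whereas ab, a BTB zinc finger gene, had 3 and 0 and the phosphodiesterase gene dnc, needed for learning, had 3 and 1. The homeodomain gene pros and the protein kinase A gene Pka-C1 each had 1 and 2, and trio had 2 and 1. Mef2, chinmo and mamo, all transcription factor genes, each had 0 and 2, and the dopamine receptor gene Dop1R1 had 2 and 0. All 20 genes of the list had a peak in each of the 4 lists. Transmitter identity genes had 0 and 2 of 15 regions, neuropeptide genes 3 and 0 of 14, and neuron identity factors 6 and 3 of 83. In transmitter identity and neuron identity factor genes, 13 of 15 and 74 of 83 regions were thus shared.

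The strongest male fru+ only regions were of several kinds. Ribosomal DNA on the X gave the top 2, at the pseudogene 18SrRNA-Psi:CR45861 with a fold of 5.05 (-log10 q of 283) and at mir-10404-4 with a fold of 12.7, and a region 111163 bp from 2SrRNA:CR45864 had a fold of 5.96. Each of these has near-identical copies elsewhere in the assembly and no female peak. In all, 4 of 1885 male fru+ only, 4 of 1843 male fru- only and 39 of 9264 shared regions had such a copy. A methionine tRNA gene, tRNA:Met-CAT-1-2, had a fold of 6.96, and an intergenic region 14154 bp from lncRNA:CR43239 had 5.83 in male fru+ and 3.57 in female fru+.

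Among strong male fru+ only regions beside protein-coding genes, the one at an Egfr start site, of the EGF receptor, had a fold of 5.47 and was called in female fru+ at 5.42 and female fru- at 5.93. The region chr3R:21387584-21387865, 1015 bp from bap, a homeobox gene of mesoderm, had 5.64, and the promoter region of Hand, a basic helix-loop-helix gene, had 5.43. Both of these were called in female fru- alone, at 4.94 and 5.12. By contrast the regions near CG17198, CG30269 and CG15615, with 5.48, 5.43 and 5.33, were called in female fru+ alone, at folds of 3.54, 4.06 and 4.52. A region at the start of gcm, the switch gene of glial fate, had a fold of 5.27 in male fru+, 4.33 in female fru+ and 3.33 in female fru-, and one near Edg84A, at 5.43, had no female peak. Strength in male fru+ therefore did not go with a single female pattern.

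The strongest male fru- only regions were mostly called in both female lists, as were 62.2% of the 450 above the 25th percentile of strength. The region chr3L:14108199-14108404, 81 bp from Sox21a, a Sox transcription factor gene, had a fold of 6.26 in male fru-, 6.43 in female fru+ and 6.44 in female fru-. An intronic region of CG13252 had 5.23 in male fru-, 5.05 in female fru+ and 4.87 in female fru-, and the promoter of snRNA:U5:63BC, a spliceosomal RNA gene, had 5.79, 4.98 and 4.37 in those lists. An intron of the adhesion gene Fas3, whose nearest start site is that of Acp36DE, had 5.69 in male fru-, 4.52 in female fru+ and 5.81 in female fru-. An intron of Dscam1, a surface receptor with very many splice forms, had 5.23 in male fru-, 3.61 in female fru+ and 4.25 in female fru-, and the region 172 bp from Zip89B had 5.28, 3.87 and 4.14 in those lists. Others had a peak in 1 female list. The promoter of the ribosomal protein gene RpL23A (4.21) and the region near lncRNA:CR45569 (5.53) were called in female fru+ alone, and those of Eaf6 (5.43) and Spp (3.80) in female fru- alone, the folds being those in male fru-.

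The directions also differed in base composition, and for 1 of the 13 motifs the intervals of their shares did not overlap. In windows of 201 bp around the strongest summit, median GC content was 47.3% in male fru+ only, 49.8% in male fru- only and 47.3% in shared regions. Within introns the medians were 46.8% and 50.7%, and within intergenic DNA 47.8% and 50.2%, with male fru- only windows the higher in each. At promoters the order was the other way, with medians of 42.8% in 146 male fru+ only and 40.3% in 184 male fru- only windows. The octamer ATGCAAAT, bound by POU-domain factors, was found in 7.80% of male fru+ only windows (6.67 to 9.10) and 4.72% of male fru- only windows (3.84 to 5.79). It was in 2.80% of shared windows and 3.79% of all windows. In introns and intergenic DNA alone it was in 8.82% of male fru+ only (7.49 to 10.4), 5.21% of male fru- only (4.18 to 6.48) and 4.58% of shared windows (3.94 to 5.33). Over whole regions, which are longer where shared, it was in 12.2%, 8.03% and 12.3%. The octamer is AT-rich, male fru+ only windows outside promoters had the lower GC content, and the part of base composition in the octamer's share was not tested.

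The other motifs had overlapping intervals in the 2 directions. The GAGA repeat GAGAGAG was in 5.15% of male fru+ only and 5.05% of male fru- only windows, against 12.2% of shared and 10.2% of all windows, and in introns and intergenic DNA alone in 5.15% and 4.80%, against 13.3% of shared windows. The promoter element TATCGATA, bound by DREF, was in 0.849% and 1.79%, against 4.43% of shared and 3.53% of all windows. In introns and intergenic DNA alone it was in 0.0668% and 0.206%, against 0.229% of shared windows, with overlapping intervals. The cyclic AMP response element TGACGTCA was in 1.06% of male fru+ only (0.688 to 1.63) and 0.434% of male fru- only windows (0.220 to 0.854), and in 0.670% of all. The E-box CATATG was in 8.65% and 7.22% (7.20% of all), CACGTG in 4.03% and 5.43% (4.48%), and CAGCTG in 12.6% and 13.1% (14.9%). The homeodomain core TAATTA was in 6.42% and 7.11% (6.76%), and the Sox site ACAATGG in 4.93% and 4.40% (3.51%). TGANTCA, CTAAAAATA, CAAGGTCA and CACACACA were the remaining motifs searched. Both strands were searched, windows were counted once per motif, and a match is a stretch of letters and not evidence of binding.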

How the data were processed

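ATAC-seq was made by the authors from sorted cells, 2 samples in each of 4 groups. Per the labels, the processing named cutadapt, Bowtie2, SAMtools, Picard, deepTools and MACS2 on genome dm6, with no versions given in the sources used here, and peaks had an FDR under 0.001. The deposited MACS2 lists, 1 per group, hold a display score, the fold enrichment, −log10 p and −log10 q, and the summit offset (other). Reads per sample are not in these lists, so depth enters through the background recovered from fold and p (11138 of 11295 peaks in male fru+, 10939 of 11206 in male fru-). Positions came from Ensembl 115 (BDGP6.54, same assembly), transposable elements left out. Python 3.11.15, scipy 1.17.1, statsmodels 0.14.6 and BLAST 2.17.0 were used. Copies were hits of 95% identity over 80% of a region. The procedure was tested on simulated peaks. Members and lists were chosen with earlier results of these data known.

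With 1 list per group no test between pools was possible. Genes were named by rule: fru, the 12 with the largest surplus each way, the nearest genes of the 8 strongest regions each way, overall and with a protein-coding nearest gene and no copy, and list members with 3 or more members, of which examples are given. dsx, Mef2, chinmo, mamo, Dop1R1, robo2, robo3 and octamer windows were chosen after their values were seen.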

Additional observations from a re-analysis of the deposited data

Results flagged for a closer look

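Regions with opposite presence in the sexes were found in both directions. Female fru- alone had a peak in 156 male fru+ only regions (8.28%), against 7.84% of all regions of the male lists. Female fru+ alone had one in 153 male fru- only regions (8.30%), against 4.86% of all regions. Most members were weak, and shared regions up to the 25th percentile of strength had 15.3% in female fru- alone and 8.31% in female fru+ alone. The difference between the sexes was not tested, as 1 list stood for each pool. The strongest were the regions near bap and Hand (male fru+ only, female fru- alone) and at RpL23A (male fru- only, female fru+ alone).

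Peaks off the main chromosomes stayed outside the comparison. The Y chromosome held 6 male fru+ and 7 male fru- peaks, beside 1 in each female list. The mitochondrial genome held 6 male fru+ and 5 male fru- peaks, beside 6 and 4 in female fru+ and female fru-.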

How the results depend on the processing

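Counts of male fru+ only and male fru- only regions stayed within 1.5 times under all 8 alternatives, at 1257 to 1951 and 1339 to 1909. The share of regions in 1 list, 28.7%, was 24.8% with a -log10 q of at least 10, 29.6% with an overlap of 50% of the shorter peak and 29.7% on autosomes. Promoter shares of male fru+ only and male fru- only regions were 13.8% and 15.9% within 500 bp, and 10.6% and 17.6% with a -log10 q of at least 10. With protein-coding start sites only, the male fru- only share was 8.57%. At a -log10 q of at least 10, female fru+ alone had 9.15% of male fru+ only and 6.95% of male fru- only regions, and female fru- alone had 26.8% of male fru- only regions. Whole regions in place of summit windows gave the octamer in 12.2% of male fru+ only, 8.03% of male fru- only and 12.3% of shared regions. The cause of these shifts was not tested. Of 24 genes named for their surplus, all 24 kept its sign with a -log10 q of at least 5 and with peaks within 200 bp merged, and 13 did when regions went to the gene with the nearest start site. None reversed. Merging all 4 lists, an alternative added after the data were seen, gave 1860 and 1794 regions. No paired analysis was possible because each group had 1 list, and no replicate could be left out. Depth limits absence: against the genome-wide background, a region counts as absent below a pileup of about 37 or 38. Where the local background was higher, as at RpL23A with 46.8 in male fru-, a call needed a higher pileup.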
